A study of Mus musculus with 6 samples.

Results

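Transcripts of the kinetochore, the centromere, the chromosomal passenger complex and the spindle checkpoint were compared between mouse ventricles of postnatal day 1 (P1) and day 14 (P14). The 35 genes were taken by symbol from a list of names, and all 35 had a row among the 14495 genes of the count table. Both ages came from male C57BL/6 mice (C57BL6/J in the extraction protocol), with no treatment. Each age had 3 libraries, and each library pooled 3 hearts, so 9 hearts stood behind each age. Ventricles were taken with the septum and without the atria according to the tissue protocol, whereas the tissue field names the left ventricle. Whole tissue was used, so fewer dividing cells and less RNA per cell cannot be told apart in any value below.

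The kinetochore is the protein assembly that ties a chromosome to the microtubules of the mitotic spindle. It is built on centromeric chromatin that carries the histone variant CENP-A, through an inner network of CENP proteins and an outer set (the KNL1, MIS12 and NDC80 complexes) that holds the microtubule. Kinetochores without proper attachment recruit checkpoint proteins that delay anaphase, and the passenger complex with its kinase Aurora B releases faulty attachments. Most of these genes are transcribed in cycling cells. Mouse cardiomyocytes largely leave the cell cycle in the first days after birth, after a last round of DNA synthesis that often ends without cell division.

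Of the 35 genes, 32 were lower at P14 and 0 were higher by edgeR's quasi-likelihood test at an adjusted p under 0.05, and 3 (Cenpb, Cenpo and Mis12) did not pass. In the same test 22.0% of the 14301 genes tested were called lower and 21.8% higher. The count of members higher was also 0 at an unadjusted p under 0.05, with DESeq2 and with limma voom. "Fell" is used below for genes called lower in this test, and levels are CPM, a library's counts rescaled to a common library size, here adjusted by the trimmed mean of M-values (TMM). The median log2 fold change of the 35 genes was −2.87, against −0.01 over all genes tested. Rises made up 49.7% of all calls, and 22.5% with library totals as the only scaling, which moved the median of all genes to −0.47, so directions are given relative to TMM. The 32 genes that fell kept between 4.52% and 59.2% of their P1 level. Each P14 library lay below each P1 library in 32 of the 35 genes, an arrangement found in 27.5% of all genes tested. These were the genes that fell. At P14, 11 of the 35 genes had a mean under 1 CPM.

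**Figure D1:**
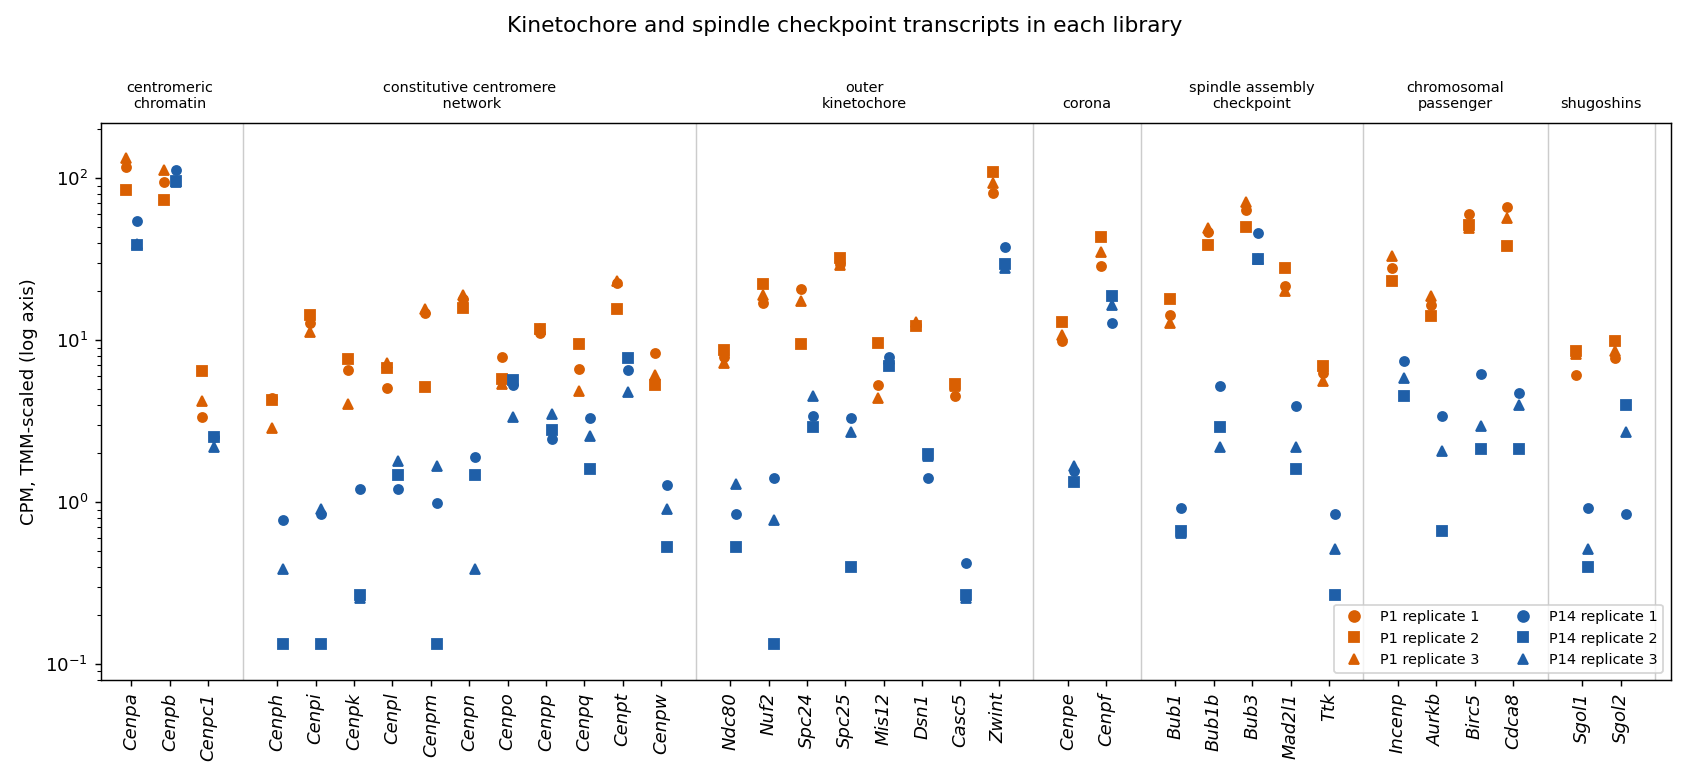
CPM (TMM-scaled, logarithmic axis) of the 35 genes in each of the 6 libraries, with P1 in orange, P14 in blue and a symbol for each replicate. The ages are separate for 32 genes and overlap for Cenpb, Cenpo and Mis12.

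Total counts were 5916557 to 17353933 per library, lowest in P1 replicate 3, and a single count was worth 0.0463 to 0.168 CPM. The 35 genes together received between 5518 and 19164 counts in P1 libraries and between 2054 and 4906 in P14 libraries, with lowest single counts of 17 and 1. All 7 cardiomyocyte markers were present (summed level 56063 to 58143 CPM at P1 and 75429 to 94251 CPM at P14), and 5 of them rose. The 4 atrial markers were not absent, at 773.57 to 1634.1 CPM at P1, lowest in P1 replicate 2, and 420.85 to 567.03 CPM at P14. Of these, Myl4 and Nppa fell, from means of 493 and 594 CPM to 112 and 221 CPM, and Myl7 and Sln did not pass. All 3 granulocyte markers in the table (S100a8, S100a9 and Ngp) fell with the kinetochore genes, from a summed 40.1 to 53.1 CPM at P1 to between 5.80 and 7.88 CPM at P14. Of 5 macrophage markers 4 rose (33.3 to 35.7 CPM at P1, 93.1 to 100.19 CPM at P14), as did 3 of 4 erythroid markers (77.4 to 216 CPM and 412 to 642 CPM). None of the 5 endothelial markers passed (533 to 578 CPM and 453 to 507 CPM). Among 6 fibroblast markers 1 rose and 1 fell (1099 to 1450 CPM and 1007 to 1440 CPM), and among 5 smooth muscle and pericyte markers 3 rose and 2 fell (1668 to 2546 CPM and 1565 to 1945 CPM). The only lymphocyte list member in the table, the pan-leukocyte gene Ptprc, rose from 1.18 to 1.69 CPM at P1 to 3.73 to 4.91 CPM at P14. The part of these other cells in the kinetochore values was not tested.

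Because the members moved together, the bases before their transcription start sites were read from RefSeq windows of GRCm38.p6, each with 250 bases before the start and 50 after it. Windows were found for 32 of the 35 genes (36 windows). Genes of mitosis often carry a CHR element (TTTGAA or TTCGAA) and CCAAT boxes, bound by the MuvB-containing complexes and by NF-Y. At the 150 bases before the start, matches on either strand are in capitals below. Bub1, Spc25 and Ttk are shown as genes that fell with 2 CCAAT boxes. Nuf2 is shown as a member that fell without any of these motifs, and Mis12 and Cenpb as members that did not pass. The positions are chr2:127831860-127832009, minus strand for Bub1, chr2:69206214-69206363, minus strand for Spc25, chr9:83834539-83834688, plus strand for Ttk, chr1:169531465-169531614, minus strand for Nuf2, chr11:71019461-71019610, plus strand for Mis12 and chr2:131180068-131180217, minus strand for Cenpb.
Bub1: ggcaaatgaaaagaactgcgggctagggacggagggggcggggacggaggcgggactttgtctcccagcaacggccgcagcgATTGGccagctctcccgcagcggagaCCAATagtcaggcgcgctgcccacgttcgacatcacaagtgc
Spc25: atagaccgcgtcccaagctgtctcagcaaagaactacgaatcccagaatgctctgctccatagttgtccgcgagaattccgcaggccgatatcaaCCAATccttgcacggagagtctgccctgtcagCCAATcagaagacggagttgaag
Ttk: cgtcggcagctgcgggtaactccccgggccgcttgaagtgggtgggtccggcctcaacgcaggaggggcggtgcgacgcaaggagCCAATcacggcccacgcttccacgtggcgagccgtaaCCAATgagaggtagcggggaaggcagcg
Nuf2: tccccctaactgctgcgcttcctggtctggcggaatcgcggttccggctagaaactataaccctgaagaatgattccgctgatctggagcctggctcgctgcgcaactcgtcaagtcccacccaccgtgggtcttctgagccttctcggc
Mis12: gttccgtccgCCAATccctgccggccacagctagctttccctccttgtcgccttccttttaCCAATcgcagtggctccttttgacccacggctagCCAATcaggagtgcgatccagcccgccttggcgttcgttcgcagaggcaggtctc
Cenpb: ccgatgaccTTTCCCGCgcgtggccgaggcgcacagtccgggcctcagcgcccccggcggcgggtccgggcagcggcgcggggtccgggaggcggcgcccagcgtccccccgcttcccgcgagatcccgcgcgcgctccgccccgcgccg

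The CCAAT boxes began 68 and 42 bases before the start in Bub1, 55 and 23 bases before it in Spc25, and 65 and 28 bases before it in Ttk. Each of these 3 genes also had a CHR match just after the start, outside the printed bases, beginning at offsets of 14, 24 and 7 bases. Windows of Bub3, Cenpf, Cenpa, Cenpl and Cenpm likewise held 1 CHR and 2 CCAAT matches. The log2 fold changes of these other genes were −0.76, −1.18, −1.33, −2.10 and −3.61, so the layout was not limited to large falls. Nuf2 had no match to CHR, CCAAT or the E2F motif in its window. Mis12 had 4 CCAAT boxes, 3 of them within the printed bases, and no CHR match. Cenpb had neither, and held a single match to the E2F motif (here TTTCGCGC, TTTGGCGC, TTTCCCGC or TTTGCCGC). CHR was found in 44.4% of the 36 member windows and in 19.2% of all 32851 windows, CCAAT in 72.2% and 37.4%, and the E2F motif in 11.1% and 2.26%. Both CHR and CCAAT were present in 38.9% of member windows and 7.52% of all windows. All windows means those of 27025 RefSeq genes, which were not limited to the genes tested here. The shares therefore do not compare members with other genes expressed in the ventricle. In Cdca8 and Cenpw a CHR and a CCAAT match shared 1 base. All 15 members with a CHR match fell, and so did 14 of the 17 without it. For CCAAT 21 of 22 members with a match fell and 8 of 10 without, and for the E2F motif 3 of 4 and 26 of 28. Median log2 fold changes with and without a match were −2.93 and −2.97 for CCAAT. They were −3.52 and −1.99 for CHR and −2.47 and −3.05 for the E2F motif, and these differences were not tested. The share of falls among all genes with each motif was not counted. These are matches of letters and say nothing of whether a factor was bound.

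Centromeric chromatin had the smallest median log2 fold change of the groups of members, −0.94, and 2 of its 3 genes fell. Cenpa encodes the histone H3 variant that marks the centromere, Cenpb a protein that binds a repeated DNA box in centromeric satellite, and Cenpc1 (CENP-C) the protein that links CENP-A nucleosomes to the outer kinetochore. Cenpa (chromosome 5, 30666777 to 30674830) was at 117, 84.1 and 134 CPM in P1 replicates 1 to 3 and at 54.5, 38.6 and 39.3 CPM in P14 replicates 1 to 3. The ages did not overlap, and P14 replicate 1 lay above the other P14 libraries. The log2 fold change was −1.33 ± 0.23 (SE; edgeR adjusted p = 3.10e-04, n = 3 libraries per age). Cenpb (chromosome 2, 131175182 to 131180067) was at 94.7, 73.3 and 112 CPM at P1 and at 112, 96.3 and 94.5 CPM at P14. The ages overlapped, with a log2 fold change of 0.12 and a 95% interval of −0.32 to 0.55 (edgeR adjusted p = 0.666). Its sign turned with P1 replicate 2 left out (−0.029) and with library totals as the only scaling (−0.32). Cenpc1 was at 3.33, 6.41 and 4.21 CPM at P1 and at 2.53, 2.52 and 2.19 CPM at P14. Its P14 libraries were all lower and close to each other, and it fell by 0.94 ± 0.34 on the log2 scale (edgeR adjusted p = 0.0337). The call of Cenpc1 ended in 6 of its 13 alternatives, namely limma voom (adjusted p = 0.0619) and leaving out P1 replicate 2 (edgeR adjusted p = 0.157), P1 replicate 3 (0.056), P14 replicate 1 (0.0717), P14 replicate 2 (0.0809) or P14 replicate 3 (0.104). Without P1 replicate 2 its log2 fold change was −0.60.

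In the constitutive centromere network, the inner set of CENP proteins that stays at the centromere through the cell cycle, 10 of 11 genes fell and Cenpo did not pass. The median log2 fold change was −2.79. Cenpi (chromosome X, 134308084 to 134362639), a subunit of the CENP-H/I/K/M group, was at 12.7, 14.3 and 11.3 CPM at P1 and at 0.845, 0.133 and 0.902 CPM at P14, the last 3 values resting on 12, 1 and 7 counts. Every P14 library lay far below the lowest P1 library. It fell 19.1-fold (log2 fold change −4.26 ± 0.40, edgeR adjusted p = 1.84e-06). Its partners Cenph, Cenpk and Cenpm fell by 2.99, 3.21 and 3.61 on the log2 scale. Without P14 replicate 1 the values of Cenph and Cenpk were −3.85 and −4.52. Cenpm, whose P1 values of 14.7, 5.13 and 15.5 CPM were lowest in replicate 2, had the widest error of the 35 genes (SE 0.60). Cenpn, which recognises the CENP-A nucleosome, was at 18.0, 15.7 and 19.0 CPM at P1 and at 1.90, 1.46 and 0.386 CPM at P14. The separation was complete, with a log2 fold change of −3.72 ± 0.37. Its partner Cenpl fell by 2.10 on the same scale.

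Cenpt and Cenpw, histone-fold proteins that give the NDC80 complex a second anchor, both fell. Cenpt was at 22.5, 15.5 and 23.2 CPM at P1 and at 6.55, 7.70 and 4.77 CPM at P14 (log2 fold change −1.68 ± 0.26). Cenpw was at 8.28, 5.31 and 6.06 CPM at P1 and at 1.27, 0.531 and 0.902 CPM at P14 (log2 fold change −2.79 ± 0.37). Neither gene's ages overlapped. Among the CENP-O/P/Q subunits, Cenpp and Cenpq fell by 1.99 and 1.47. Cenpo (chromosome 12, 4196004 to 4234294) was at 7.91, 5.71 and 5.39 CPM at P1 and at 5.28, 5.71 and 3.35 CPM at P14. Its ages overlapped, with a log2 fold change of −0.42 and a 95% interval of −1.05 to 0.21 (edgeR adjusted p = 0.271). Exons of Cenpo overlap those of Adcy3 and Ptrhd1 on the opposite strand over 1380 and 252 bases of its 7263. Adcy3 and Ptrhd1 were at 5.83 and 15.5 CPM at P1 and at 3.58 and 10.4 CPM at P14. The strandedness of the counting was not given in the sources used here, and reads of these genes may be mixed. With library totals as the only scaling Cenpo was called lower (log2 fold change −0.89, edgeR adjusted p = 0.0235).

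**Figure D2:**
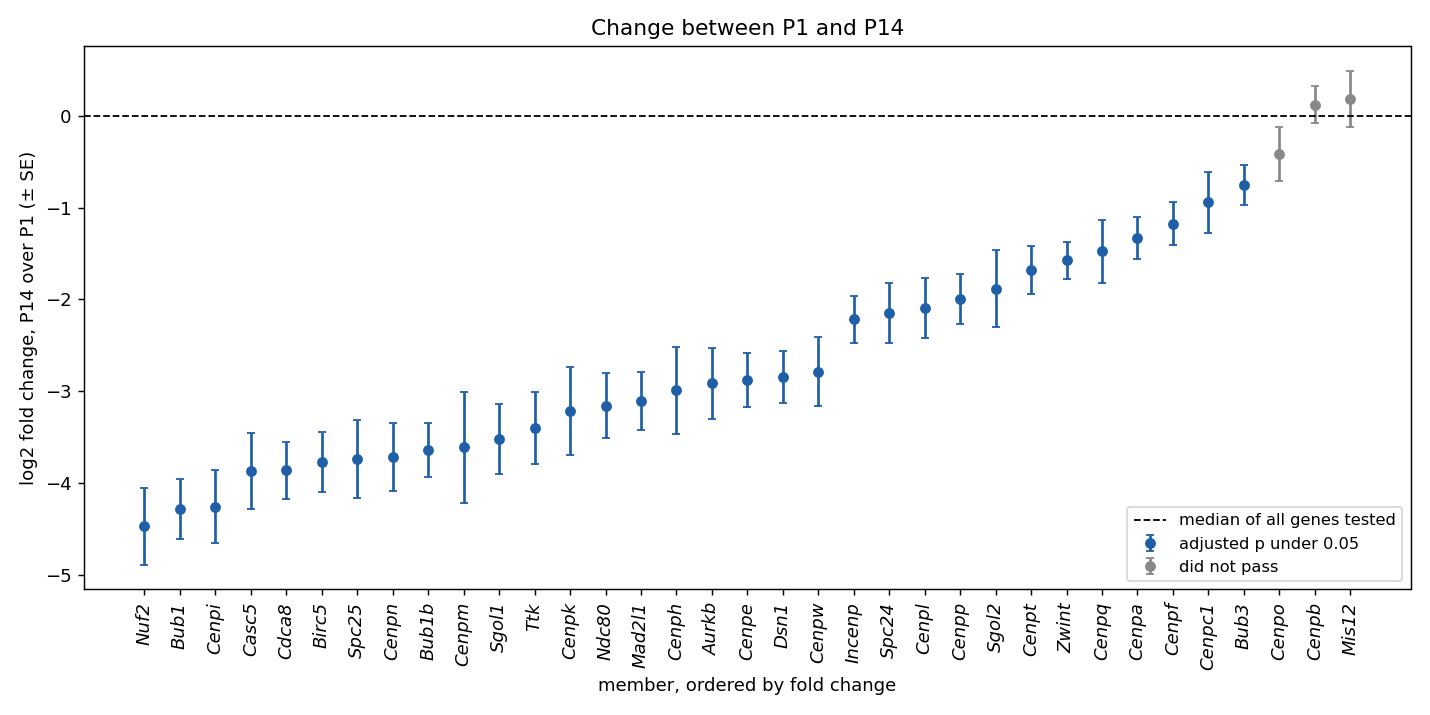
Log2 fold change (P14 over P1) of the 35 genes with its SE from edgeR, ordered from the largest fall, with genes past the test in blue and the 3 others in grey. The points run from −4.47 for Nuf2 to 0.18 for Mis12, and the dashed line at −0.01 is the median of all genes tested.

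Of the 8 outer kinetochore genes 7 fell, and Mis12 did not pass. The NDC80 complex, the rod-shaped coupler that binds microtubules, is made of Ndc80, Nuf2, Spc24 and Spc25. Nuf2 (chromosome 1, 169497934 to 169531464) was at 16.98, 22.3 and 18.9 CPM at P1 and at 1.41, 0.133 and 0.773 CPM at P14, from 20, 1 and 6 counts. All P14 libraries were far below P1, with replicate 2 at a single count. It fell 22.1-fold (log2 fold change −4.47 ± 0.42, edgeR adjusted p = 2.35e-06). The log2 fold change was −5.37 without P14 replicate 1 and −4.07 without P14 replicate 2. That of Bub1 ran from −4.74 to −4.13 over all alternatives, so the order of Nuf2 and Bub1 depended on the libraries used. Spc25 was at 29.5, 32.0 and 29.1 CPM at P1 and at 3.31, 0.398 and 2.70 CPM at P14. The P1 libraries lay close together and P14 replicate 2 was the lowest. It fell by 3.74 ± 0.42 on the log2 scale. Ndc80 and Spc24 fell by 3.15 and 2.14. The 95% intervals of Nuf2 (−5.36 to −3.58) and Spc24 (−2.84 to −1.45) did not meet, and the difference itself was not tested.

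Casc5 (Knl1), the scaffold on which the checkpoint kinase BUB1 docks, was at 4.49, 5.36 and 5.22 CPM at P1 and at 0.422, 0.266 and 0.258 CPM at P14. Replicates lay close together at both ages, and Casc5 fell 14.6-fold. Zwint, which binds KNL1 and helps to recruit the corona, was at 80.5, 108.9 and 93.5 CPM at P1 and at 37.4, 29.3 and 27.8 CPM at P14. It fell by 1.58 ± 0.21 on the log2 scale and kept 33.5% of its P1 level. The MIS12 complex joins the inner network to NDC80, and its subunits Dsn1 and Mis12 were both measured. Dsn1 was at 12.4, 12.2 and 12.97 CPM at P1 and at 1.41, 1.99 and 1.93 CPM at P14, a log2 fold change of −2.84 ± 0.28. Mis12 (chromosome 11, 71019611 to 71027371) was at 5.27, 9.62 and 4.38 CPM at P1 and at 7.81, 6.90 and 7.60 CPM at P14. Its P14 values lay within the P1 range, with a log2 fold change of 0.18 and a 95% interval of −0.46 to 0.83 (edgeR adjusted p = 0.65), which turned to −0.30 with library totals alone. Exons of Mis12 overlap Derl2 on the opposite strand over 231 of 3003 bases, and Derl2 rose from 13.4 to 26.7 CPM.

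The corona is the outermost layer, where the kinesin CENP-E carries chromosomes along microtubules and CENP-F holds dynein regulators. Cenpe was at 9.90, 12.9 and 10.8 CPM at P1 and at 1.55, 1.33 and 1.67 CPM at P14. Cenpf was at 28.8, 43.1 and 35.2 CPM at P1 and at 12.7, 18.6 and 16.4 CPM at P14. Both were separate between ages, but Cenpf kept 44.2% of its level and Cenpe 13.7%. Their log2 fold changes were −1.18 ± 0.23 and −2.87 ± 0.29 respectively.

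All 5 genes of the spindle assembly checkpoint fell, with log2 fold changes from −0.76 (Bub3) to −4.28 (Bub1). Bub1 (chromosome 2, 127801122 to 127831865), the kinase that marks the centromere and recruits further checkpoint proteins, was at 14.3, 17.9 and 12.8 CPM at P1 and at 0.915, 0.664 and 0.644 CPM at P14. The P14 libraries differed little among themselves. Bub1 fell 19.4-fold (log2 fold change −4.28 ± 0.32, edgeR adjusted p = 3.20e-07). Bub1b (BubR1), a subunit of the complex that inhibits the anaphase-promoting complex, was at 46.2, 38.8 and 49.0 CPM at P1 and at 5.21, 2.92 and 2.19 CPM at P14, a log2 fold change of −3.64 ± 0.30. Mad2l1 (MAD2), the subunit that changes shape at unattached kinetochores, was at 21.7, 27.9 and 20.04 CPM at P1 and at 3.94, 1.59 and 2.19 CPM at P14. Ttk (MPS1), the kinase at the top of the checkpoint, was at 6.29, 6.94 and 5.56 CPM at P1 and at 0.845, 0.266 and 0.515 CPM at P14. These last genes fell by 3.10 and 3.40, and P14 replicate 1 was the highest P14 library in Bub1, Bub1b, Mad2l1 and Ttk.

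Bub3 encodes a WD-repeat protein that carries BUB1 and BubR1 to KNL1 and is also found in interphase nuclei. It was at 63.9, 49.9 and 71.4 CPM at P1 and at 45.5, 31.7 and 31.7 CPM at P14. The highest P14 library was just below the lowest P1 library, and Bub3 fell by 0.76 ± 0.22 on the log2 scale (edgeR adjusted p = 0.0116). The call ended when P1 replicate 3 (edgeR adjusted p = 0.0564), P14 replicate 2 (0.0681) or P14 replicate 3 (0.0625) was left out.

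All 4 genes of the chromosomal passenger complex fell, and their summed level at P14 was 10.1% of that at P1. Incenp is the scaffold, Aurkb the kinase Aurora B, and Birc5 (survivin) and Cdca8 (borealin) target the complex to the centromere. Cdca8 was at 66.6, 38.0 and 56.9 CPM at P1 and at 4.72, 2.12 and 3.99 CPM at P14. Birc5 was at 60.3, 51.7 and 49.3 CPM at P1 and at 6.19, 2.12 and 2.96 CPM at P14. Both were separate between ages and fell 14.5-fold and 13.6-fold (log2 fold changes −3.86 ± 0.31 and −3.77 ± 0.32). Aurkb was at 16.5, 14.2 and 18.7 CPM at P1 and at 3.38, 0.664 and 2.06 CPM at P14, with 48, 5 and 16 counts behind the P14 values. It fell by 2.91 ± 0.38 on the log2 scale (edgeR adjusted p = 5.14e-05). Without P14 replicate 1 the log2 fold changes of Aurkb and Birc5 were −3.56 and −4.39. Incenp was at 28.0, 23.3 and 33.0 CPM at P1 and at 7.46, 4.51 and 5.80 CPM at P14, the mildest change of the 4 (log2 fold change −2.22 ± 0.26). P14 replicate 1 was the highest and replicate 2 the lowest P14 library for each of these genes.

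The shugoshins protect centromeric cohesion until anaphase. Sgol1, the main mitotic form, was at 6.11, 8.57 and 8.25 CPM at P1 and at 0.915, 0.398 and 0.515 CPM at P14 (log2 fold change −3.52 ± 0.38). Sgol2, best known from meiosis, was at 7.77, 9.91 and 8.59 CPM at P1 and at 0.845, 3.98 and 2.70 CPM at P14 (log2 fold change −1.88 ± 0.42). Both fell, and the P14 libraries were ordered differently in each, with replicate 1 the highest for Sgol1 and the lowest for Sgol2. Exons of Sgol2 overlap Kctd18 on the opposite strand over 2455 of 7007 bases. With either strand counted, 65.4% of its windows of 36 bases, the read length, were found in no other annotated gene. This was the lowest share of the members, and windows shared with the overlapping Kctd18 are part of the loss. Kctd18 itself fell from 10.4 to 5.09 CPM. Shorter overlaps on the opposite strand were annotated for Cenpp (315 bases with Ippk), Cenpk (233 with Ppwd1), Cdca8 (232 with 9930104L06Rik) and Cenpq (95 with Mut), and the part of such reads in the members' counts was not tested.

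**Figure D3:**
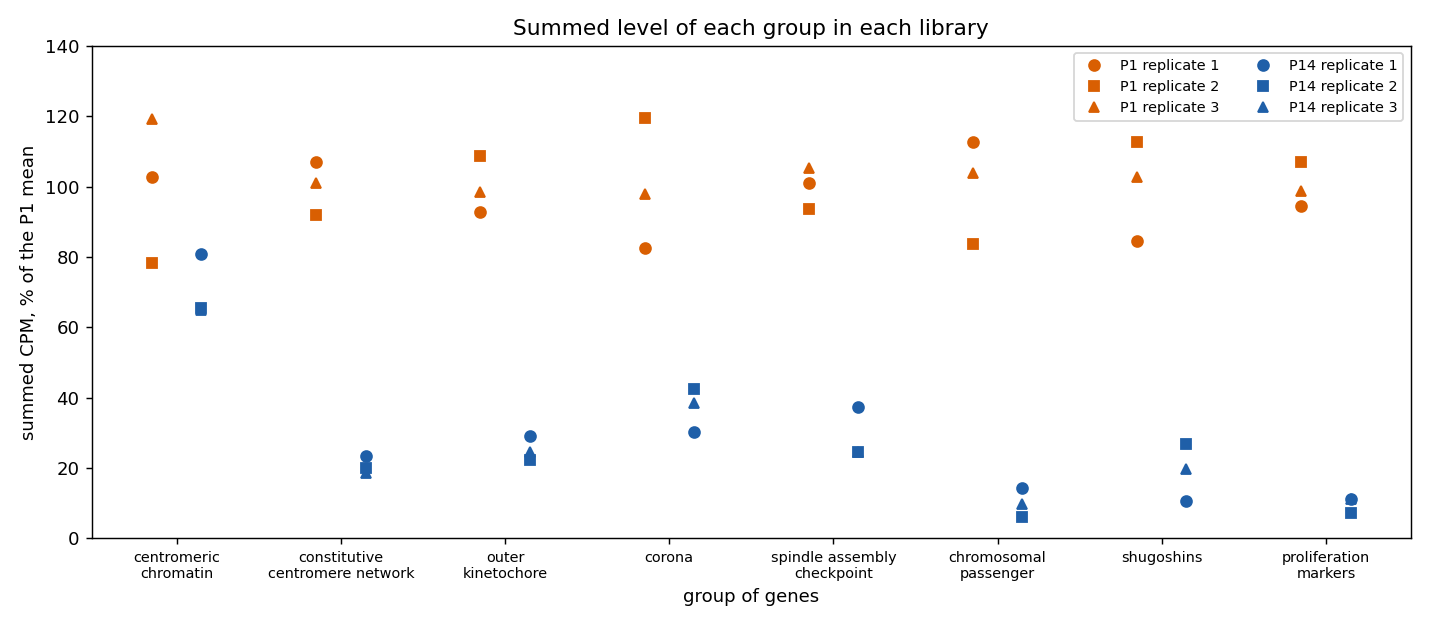
Summed CPM of each group of members, and of 5 proliferation markers, in each library as a percentage of the group's P1 mean, with P1 in orange, P14 in blue and a symbol for each replicate. At P14 the passenger complex lies at 6.20% to 14.3%, the proliferation markers at 7.28% to 11.3%, the shugoshins at 10.7% to 26.7% and centromeric chromatin at 64.9% to 80.9%.

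The groups of members kept different shares of their P1 level. Summed CPM at P14 was 10.1% of P1 for the passenger complex, 19.0% for the shugoshins, 20.6% for the constitutive network, 25.3% for the outer kinetochore, 28.9% for the checkpoint, 37.1% for the corona and 70.5% for centromeric chromatin. These sums are led by a few abundant transcripts. Cenpb, Cenpa, Zwint and Bub3, chosen after their values were seen, made up 38.7% to 44.2% of the members' summed CPM at P1 and 69.9% to 72.3% at P14. Cenpb alone went from 8.98% to 12.0% of the sum at P1 to 32.5% to 35.3% at P14, without a called change of its own. The summed level of all 35 genes was 817 to 929 CPM at P1 and 273 to 345 CPM at P14.

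Libraries of the same age were not all alike. Their counts were compared by a chi-square per degree of freedom, which also grows with depth. At P14 it was 13 between replicates 2 and 3, 94.9 between replicates 1 and 2, and 125 between replicates 1 and 3. At P1 the same pairs gave 94.7, 95.7 and 182, so such differences were not particular to P14. P14 replicate 1 held the highest P14 value for 23 of the 35 genes (65.7%), against 41.7% of all genes tested, and replicate 2 held the lowest for 19 (54.3%), against 32.2%. The summed proliferation markers were at 32.3, 20.98 and 32.6 CPM in P14 replicates 1 to 3, so the lowest library was the same. Without P14 replicate 1 the median log2 fold change of the members was −3.10, and without replicate 2 it was −2.65.

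Levels per length compare genes with each other, here as CPM per kilobase of annotated exon (GENCODE M21). At P1 the members ran from 0.588 ± 0.0551 CPM per kilobase (SD, n = 3) for Casc5 to 21.3 ± 3.21 for Zwint, which did not differ beyond its spread from Cenpb (19.1 ± 3.94) and Cenpa (19.0 ± 4.28). At P14 Cenpb was highest at 20.7 ± 2.002, followed by Cenpa (7.53 ± 1.53) and Zwint (7.11 ± 1.17), whose ranges overlapped. In the NDC80 complex the P1 means of Ndc80, Nuf2, Spc24 and Spc25 were 1.22, 3.06, 6.20 and 9.47 CPM per kilobase, and the P14 means were 0.137, 0.122, 1.40 and 0.670. Nuf2 at P14 ranged from 0.0209 to 0.222 over its libraries. In the checkpoint, Bub1b was highest at P1 (10.4) and Bub3 at P14 (5.18), and Ttk was lowest at both ages (1.27 and 0.110). The P1 libraries of Bub1b (9.1 to 11.5) overlapped those of Bub3 (7.1 to 10.2). Annotated exons may be longer than the transcripts the ventricle makes, and that would lower a gene's value. The ages would be lowered alike if they make the same transcripts. The loss may differ between genes, so the order of genes per length is uncertain.

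**Figure D4:**
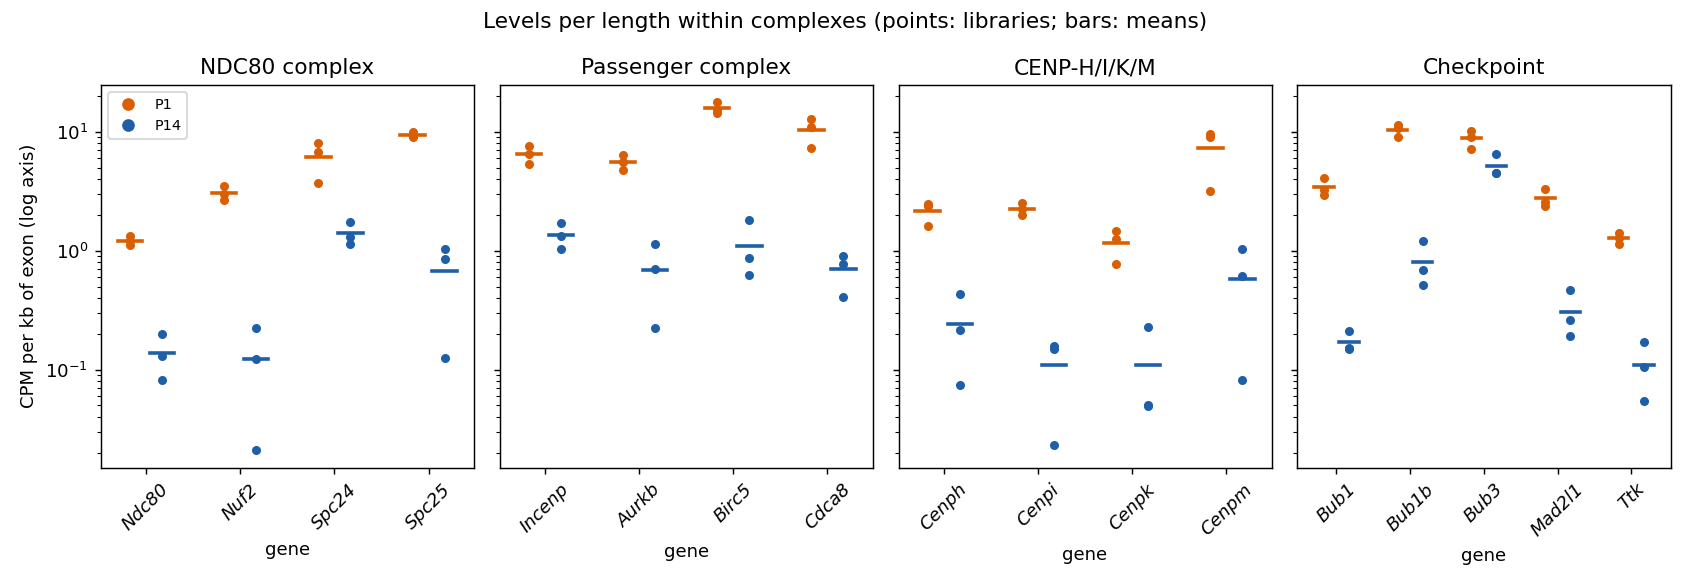
CPM per kilobase of exon (logarithmic axis) for the subunits of 4 assemblies, with a point for each library and a bar for the mean, P1 in orange and P14 in blue. Bub3 goes from 8.81 to 5.18 CPM per kilobase and Bub1 from 3.44 to 0.170.

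Other genes of the same machinery were read from related lists. Of 27 further kinetochore and checkpoint genes, 19 were called lower and 1 higher, and 7 did not pass (median log2 fold change −2.49). The largest falls were those of the kinase Nek2 (from 26.6 to 1.24 CPM, log2 fold change −4.29 ± 0.40), D2Ertd750e, the kinetochore protein kinastrin (−4.20 ± 0.30), and the mitotic kinase Plk1 (−4.05 ± 0.35). Mad2l1bp (p31comet), which helps to take MAD2 off the checkpoint complex, was the list's only rise. It was at 14.7, 7.75 and 16.2 CPM at P1 and at 31.1, 27.4 and 23.1 CPM at P14, with no overlap (log2 fold change 1.10 ± 0.27, edgeR adjusted p = 0.00471), while its target Mad2l1 fell.

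All 7 genes of CENP-A loading fell, with a median of −0.96, and 5 to 7 of them were called with single libraries left out. Among them were Oip5 (−2.52 ± 0.54), of the complex that licenses the centromere for new CENP-A, and the histone chaperone Rbbp4 (−1.05 ± 0.20). The P14 values of Oip5 rested on 21, 2 and 1 counts. Exons overlap genes on the opposite strand in Oip5 (172 of 1778 bases with Nusap1) and in Rbbp4 (796 with Gm26722 and 782 with Sync). The part of such reads in their counts was not tested. Hjurp, the chaperone that deposits CENP-A, is named after its values were seen. It was at 79.5, 79.4 and 97.5 CPM at P1 and at 41.5, 56.6 and 55.6 CPM at P14, so that it kept 59.96% of its level. Rbbp4, Rbbp7 and Npm1 act in many other complexes as well.

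The anaphase-promoting complex is the ubiquitin ligase that the checkpoint restrains, and 7 of its 17 genes fell while 10 did not pass (median −0.23). Those that fell were the E2 enzyme Ube2c (−4.01 ± 0.34), the inhibitor Fbxo5 (−2.15 ± 0.38), the E2 enzyme Ube2s (−1.73 ± 0.36) and 4 core subunits. The core subunits, named after their values were seen, were Cdc23 (−1.42 ± 0.21), Anapc10 (−1.23 ± 0.32), Anapc5 (−0.68 ± 0.22) and Cdc16 (−0.61 ± 0.20). Exons of Ube2c overlap those of Tnnc2 on the opposite strand over 592 bases. Such overlaps were also annotated for Cdc23 (1271 of its 9500 bases with Kif20a) and Ube2s (183 with Rpl28). The part of such reads in these counts was not tested. In the list of cohesin, its regulators and separase 5 of 15 genes fell, 1 rose and 9 did not pass (median −0.20). The cohesion regulators Cdca5 and Esco2 and the protease separase (Espl1) changed the most (−3.92 ± 0.38, −3.78 ± 0.39 and −1.97 ± 0.35). Pttg1 (securin), the inhibitor of separase, went the other way. It was at 57.3, 55.4 and 46.3 CPM at P1 and at 144, 99.5 and 80.2 CPM at P14 (log2 fold change 1.02 ± 0.23, edgeR adjusted p = 0.00235), with no overlap between ages. All 5 proliferation markers fell, with a median of −3.46: Ccnb1 by 4.71, Cdk1 by 3.92, Top2a by 3.46 and Mki67 by 3.06 among them.

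**Figure D5:**
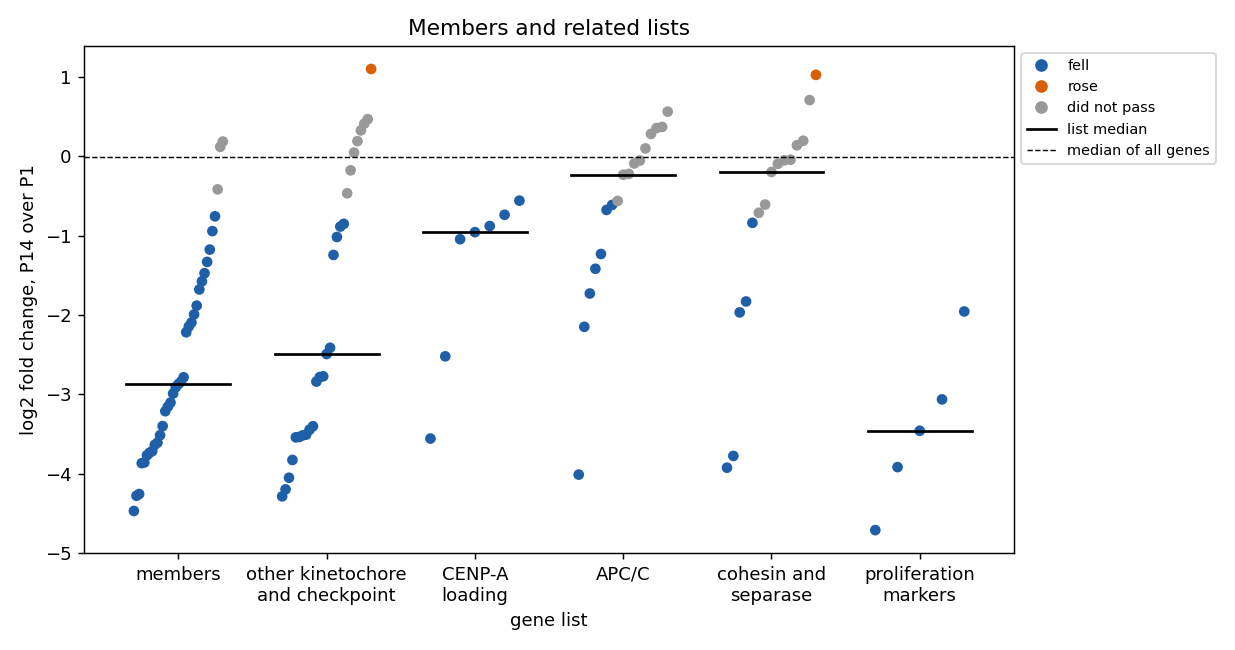
Log2 fold change (P14 over P1) of each tested gene in the 35 members and 5 related lists, with falls in blue, rises in orange and genes that did not pass in grey. Bars are list medians (−2.87 for the members, −0.23 for the anaphase-promoting complex (APC/C) and −0.20 for cohesin), and the dashed line is the median of all genes tested.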

How the data were processed

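Ventricular poly(A) RNA of mice was sequenced for 36 cycles, with 3 libraries per age. The authors deposited whole-number read counts per gene, named by Ensembl identifier and symbol. Per the submitters' processing notes the build was GRCm38 (mm10), and edgeR 3.2.4 and bedtools are listed without a role. The aligner, annotation and strandedness were not given in the sources used here. No gene in the table has a total under 60 counts, and genes below that are not analysed here.

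Genes were filtered with filterByExpr (minimum count 10), which kept 14301 and all 35 members, and scaled by TMM. P14 was compared with P1 by edgeR 4.0.16 (robust quasi-likelihood F-test, two-sided, R 4.3.3) over the whole table, with Benjamini-Hochberg adjustment over all genes tested, and checked on simulated data. SE is the fitted coefficient over the square root of F. Alternatives included DESeq2 1.42.0 and limma 3.58.1 (voom). Positions, exon lengths and overlaps come from GENCODE M21 (GRCm38). Deviations of same-numbered libraries from the mean of their age had correlations of 0.295, 0.112 and 0.102, and the other pairs had −0.214 to 0.09. Deviations within an age are not independent, so these values cannot establish a pairing, and the labels give none. The main test used age alone, and the replicate number was a block only in an alternative fit. Members and lists were chosen with earlier results of these data known. Named genes were all members, from each other list the 3 called genes with the largest change and every called gene against its main direction, and Mki67 and Top2a. A gene named by this rule is not reported here.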

Additional observations from a re-analysis of the deposited data

How the results depend on the processing

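With library totals as the only scaling the median of all genes moved from −0.01 to −0.47 and the members' median from −2.87 to −3.33. The members' distance from all genes was −2.86 in both fits. That distance could hardly differ, because scaling by library totals shifts all genes by nearly the same amount. The same scaling called 5592 genes lower and 1620 higher, against 3149 and 3115, so that rises made up 22.5% of calls in place of 49.7%, and 8 cohesin and separase genes fell in place of 5. It gave Cenpb −0.32 and Mis12 −0.30, and with single libraries left out Cenpb ran from −0.029 (without P1 replicate 2) to 0.28. With over 5 CPM required in 3 libraries, 31 members were tested and 28 fell, and 4 CENP-A loading genes fell in place of 7, because fewer genes were tested. DESeq2 called 6 CENP-A loading genes, and 5 were called without P1 replicate 1 or 3 or P14 replicate 2 or 3. Over the libraries left out in turn, 30 to 32 members fell and their median ran from −3.10 to −2.65. With the replicate number as a block 32 members fell, as without it (median −2.85), and the replicate block changed no member's call. Of 486 refits of single members' fold changes, 473 kept direction and side of the threshold, 9 lost the call (Cenpc1 and Bub3), 1 gained it (Cenpo) and 3 changed sign (Cenpb and Mis12), each of the 3 without a call. The cause of these losses was not tested. Members with 1 to 3 counts in a P14 library cannot be ordered among themselves at this depth.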
